A study of Mus musculus with 16 samples.

Results

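Taurine and sulfur amino acid metabolism is represented here by 10 genes, Mat1a, Gnmt, Ahcy, Bhmt, Cbs, Cth, Cdo1, Ado, Csad and Slc6a6, of the 78317 genes in the deposited tables. All 10 passed the filter on low counts. The genes were chosen by symbol, from a list drawn up with earlier results of the same libraries known. The measured values behind that choice included the low level of Csad in high fat males and the way its diet change differed between the sexes. Csad is therefore described without a test. For the other 9 genes the record does not say which values were used, so their tests describe genes that were picked with results in view.

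RNA was sequenced from whole liver of wild-type mice of the inbred strain C57BL/6J. They arrived at 6 weeks of age and ate 1 of 2 diets for 10 weeks. The normal diet (LabDiet 5053) supplied 4.5% of calories from fat and the high fat diet (Research Diets D12492) 60%. The 4 groups, females and males on each diet, held 4 libraries each, all given the same batch in the labels. The diets are different products, so fat content cannot be told apart from their other ingredients, and the hour at which livers were collected is not given in the sources used here. The labels number the libraries without saying that each is a separate mouse, so p-values measure the spread between libraries.

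The liver converts methionine into S-adenosylmethionine, the main methyl donor of the cell, and the product left after methyl transfer is cleaved to homocysteine. Homocysteine is either methylated back to methionine or passed through transsulfuration to cysteine. Cysteine is then used for protein and glutathione or oxidised to cysteine sulfinate, hypotaurine and taurine. Mouse liver conjugates bile acids with taurine.

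Library totals ranged from 22228115 to 41420589 expected counts. Replicates 2 and 3 of the males on the high fat diet were much closer to each other than any other replicates of a group. Their counts differed by a chi-square of 4.07 per gene, against 20.8 to 308 for every other pair within a group. They differed by more than sampling noise, which gives about 1 per gene. This does not show that they came from separate mice, which the labels do not say. They were kept as 2 libraries, so the 4 high fat male libraries may not be 4 separate mice. Replicates 2 and 3 both stood above replicates 1 and 4 for 9 of the 10 genes, all but Cbs. Among all 14781 tested genes both lay above the other replicates for 4020 and both below them for 4246, together 55.9%. In CPM, read counts per 1000000 of a library after TMM scaling, the summed level of 6 pancreatic acinar markers was 25.4 and 10.1 in these replicates and 0.78 and 0.398 in replicates 1 and 4. In the other 12 libraries the sum was at most 5.02, and Cpa1, Pnlip and Cel were at 0 in 13 of 16 libraries. Of the other marker sums, those of hepatocytes and lymphocytes were higher in replicates 2 and 3, and those of macrophages and cholangiocytes lower. The stellate, adipocyte and red blood cell sums did not set replicates 2 and 3 apart. The endothelial sum was 143 and 128 CPM in replicates 2 and 3 against 143 and 146 CPM in replicates 1 and 4. The hepatocyte sum was 72100 and 73285 CPM in replicates 2 and 3 against 51082 and 52958 CPM in replicates 1 and 4. Macrophage markers summed to 217 and 184 against 376 and 283 CPM, and cholangiocyte markers to 54.0 and 49.0 against 90.1 and 85.9 CPM. Most of the cholangiocyte sum was Spp1, at 43.6 to 82.6 CPM in high fat males. The part of these markers in the results was not tested. Values without this pair are given beside many of the results of the 10 genes that it changes.

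Groups were compared by edgeR's quasi-likelihood test, with p-values adjusted over all 14781 tested genes, and a gene is called where the adjusted p is under 0.05. A diet change is the high fat minus the normal diet on the log2 scale. A difference of the diet changes is females minus males. Whole liver was measured, so fewer cells of a type and less RNA per cell cannot be told apart in any of these comparisons.

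The 250 bases before the annotated start of the genes whose results are described most fully are shown, since they are the stretch of the gene closest to where transcription begins. RefSeq (GRCm38.p6) held promoter windows for 6 of the 10 genes, 7 windows in all because Csad has 2 annotated starts, and none was matched for Cdo1, Slc6a6, Cth or Mat1a. The expression files use GRCm39, so these positions belong to GRCm38.p6 only. All of the windows shown lie on the minus strand and are written 5′ to 3′, and capitals mark matches to the motifs named after them. They are Csad at its upstream start (chr15:102205053-102205302), Csad at its downstream start (chr15:102189044-102189293), Bhmt (chr13:93637759-93638008), Cbs (chr17:31637206-31637455) and Ahcy (chr2:155074498-155074747).
Csad, upstream start: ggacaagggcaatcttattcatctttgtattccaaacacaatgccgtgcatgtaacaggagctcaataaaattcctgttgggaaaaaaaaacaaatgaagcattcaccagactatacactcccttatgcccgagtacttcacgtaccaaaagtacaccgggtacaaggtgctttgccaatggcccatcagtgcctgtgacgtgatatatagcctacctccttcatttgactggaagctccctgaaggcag
Csad, downstream start: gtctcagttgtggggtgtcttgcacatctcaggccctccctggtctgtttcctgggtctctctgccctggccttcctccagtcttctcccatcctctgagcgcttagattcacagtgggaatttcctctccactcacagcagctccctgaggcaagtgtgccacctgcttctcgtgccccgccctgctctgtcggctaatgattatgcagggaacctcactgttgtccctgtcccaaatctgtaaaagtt
Bhmt: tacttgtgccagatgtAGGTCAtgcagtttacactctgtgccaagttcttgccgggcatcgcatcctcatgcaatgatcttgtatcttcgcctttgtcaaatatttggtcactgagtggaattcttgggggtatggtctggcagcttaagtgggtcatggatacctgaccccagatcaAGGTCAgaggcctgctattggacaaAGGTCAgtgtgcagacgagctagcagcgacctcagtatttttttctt
Cbs: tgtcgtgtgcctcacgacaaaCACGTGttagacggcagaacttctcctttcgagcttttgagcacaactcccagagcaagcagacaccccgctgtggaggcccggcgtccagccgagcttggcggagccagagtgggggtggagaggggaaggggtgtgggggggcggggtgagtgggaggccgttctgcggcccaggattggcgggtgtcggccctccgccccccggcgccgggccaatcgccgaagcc
Ahcy: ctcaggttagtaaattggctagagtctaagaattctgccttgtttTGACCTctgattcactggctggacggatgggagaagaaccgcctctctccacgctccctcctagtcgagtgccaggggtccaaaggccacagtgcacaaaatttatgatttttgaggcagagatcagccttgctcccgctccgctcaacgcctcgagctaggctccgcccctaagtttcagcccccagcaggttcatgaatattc

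A set of 7 short motifs was searched on both strands of windows running from 250 bases before to 50 bases after the start. They were chosen after the values of these genes had been seen. Bhmt held 3 copies of AGGTCA, a core bound by many nuclear receptors, starting at bases -234, -72 and -47 from the start. At least 1 copy was found in 16.3% of all 32851 RefSeq promoter windows, and 3 or more in 0.183%. Ahcy and Gnmt each held 1 copy, on the opposite strand (TGACCT, starting at -205 and -181). Cbs held 1 E-box, CACGTG, starting at -229, a motif present in 7.15% of windows. No match was found in either Csad window or in Ado. The remaining motifs, TTATGTAA or TTACGTAA (1.06% of windows), TGATGNAA (3.97%), AGAACA (19.0%), CAAAGTCC (1.42%) and TTGCGCAA or TTGTGCAA (1.19%), matched none of the 7 windows. No motif contains another, and a match is a description of the sequence only.

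**Figure D1:**
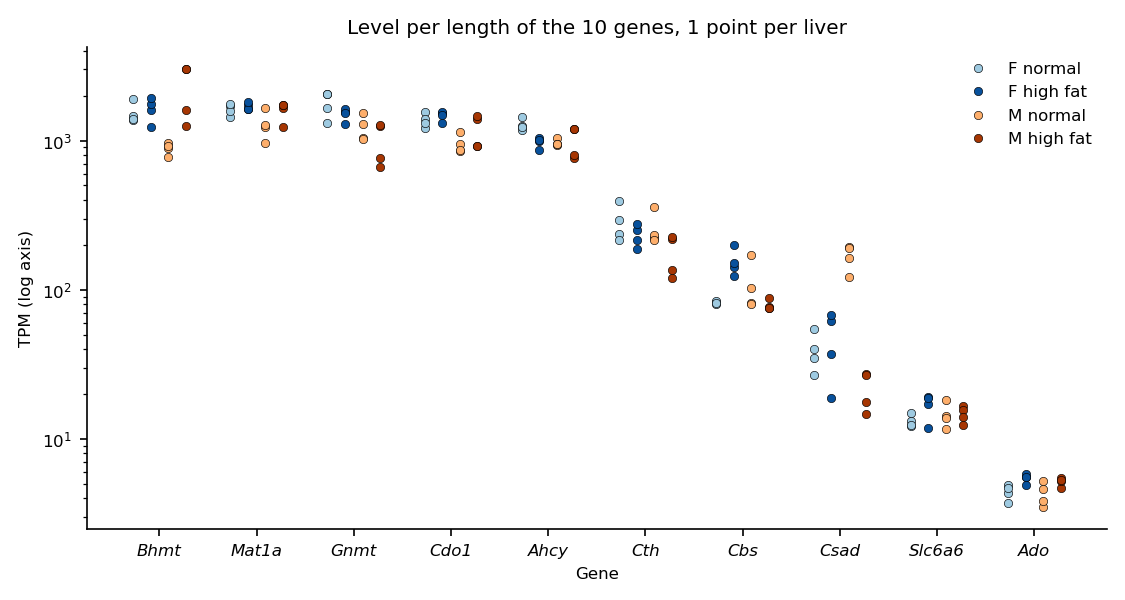
TPM (transcript level scaled by gene length and library, log axis) of the 10 genes, 1 point per library, coloured by sex and diet. Mat1a, Gnmt, Bhmt, Cdo1 and Ahcy hold the upper ranks, Ado and Slc6a6 the lowest, and Csad stands out for its 4 libraries of males on the normal diet.

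By TPM, the authors' measure per transcript length, the genes of the methionine cycle and the first step of cysteine oxidation were the most abundant. As means, Mat1a, Gnmt, Bhmt, Cdo1 and Ahcy took the upper 5 ranks in every group. Cth came next in every group, and Slc6a6 and Ado were always ranked 9 and 10. Csad was ranked 8 in 3 groups and 7 in males on the normal diet, where its 121.8 to 192.8 TPM overlapped the 80.5 to 172.1 TPM of Cbs. Together the 10 genes made up 0.799% ± 0.050 (SD, n = 4) of TPM in females on the normal diet and 0.774% ± 0.035 in females on the high fat diet. In males they made up 0.585% ± 0.057 on the normal diet and 0.725% ± 0.198 on the high fat diet, where the range ran from 0.546% to 0.900%. Male replicates 2 and 3 on the high fat diet had 0.89% and 0.90%. Replicates 1 and 4 had 0.56% and 0.55%, within the male normal diet range of 0.54% to 0.67%.

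**Figure D2:**
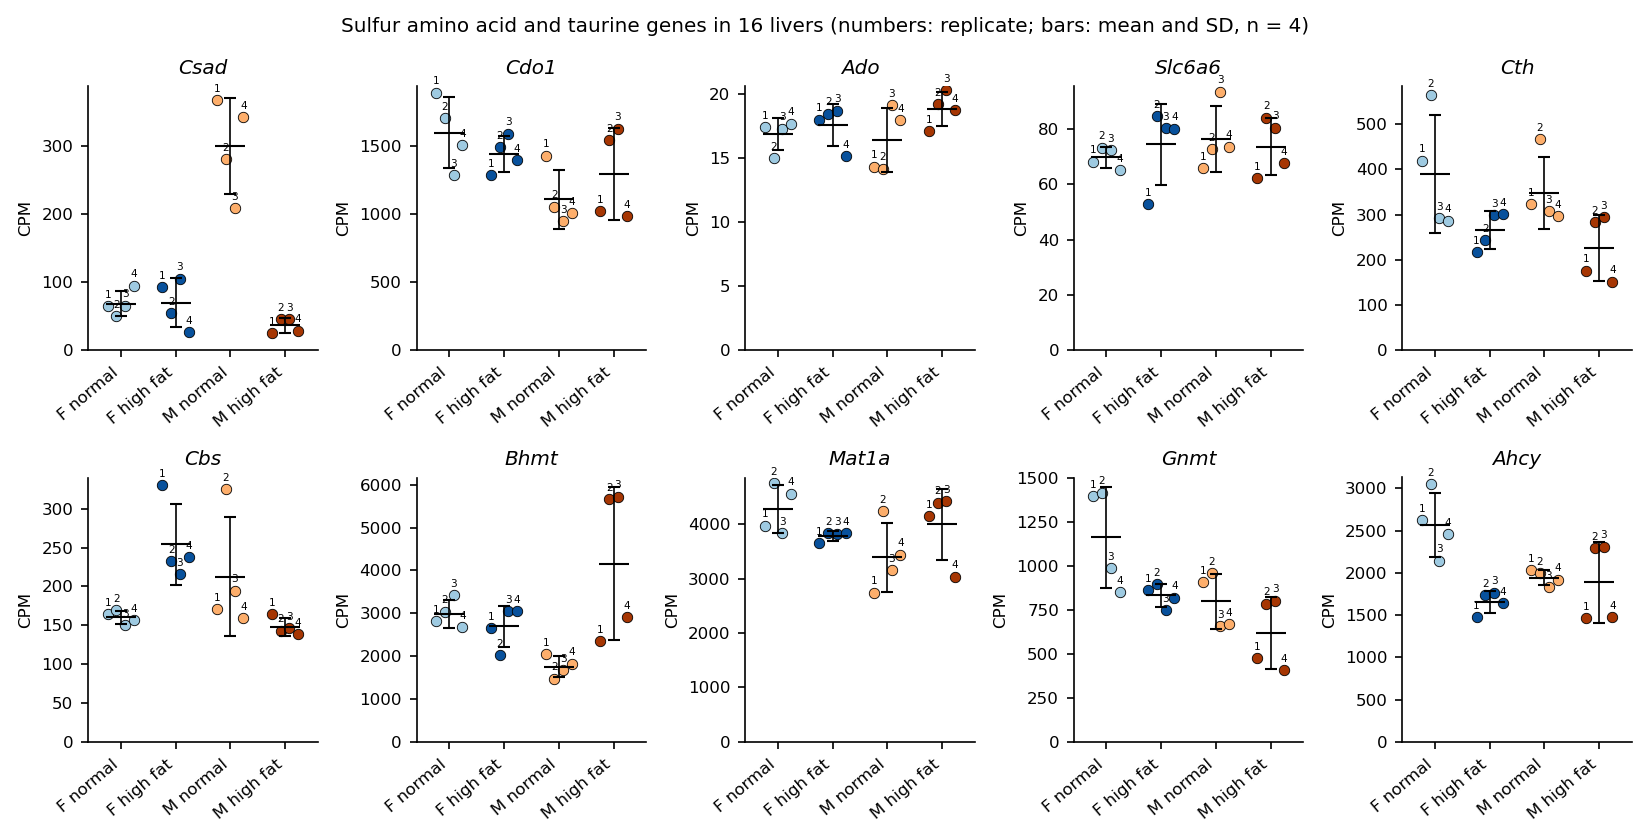
CPM of the 10 genes in each of the 16 libraries, numbered by replicate, with the group mean and SD (n = 4). Csad is high in males on the normal diet only, Bhmt is highest in replicates 2 and 3 of the males on the high fat diet, and Cbs in females is higher on the high fat diet in every library.

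Of the 4 methionine cycle genes, 2 changed with diet, each in 1 sex: Bhmt rose in males and Ahcy fell in females. Of all tested genes 11.5% were called by diet in females and 11.4% in males. Bhmt encodes the enzyme that uses betaine to methylate homocysteine back to methionine (ENSMUSG00000074768.7). In males on the normal diet Bhmt was measured at 2044, 1473, 1678 and 1822 CPM. Those given the high fat diet had 2348, 5664, 5719 and 2908 CPM. The male groups did not overlap, and replicates 2 and 3 on the high fat diet were the highest of all 16 libraries. Females had 2808, 3033, 3428 and 2678 CPM of Bhmt on the normal diet and 2648, 2025, 3045 and 3053 CPM on the high fat diet, which overlap. The male increase was 1.25 ± 0.24 (SE) on the log2 scale, or 2.37-fold, with an adjusted p of 0.0029. Without replicates 2 and 3 it was 0.58 ± 0.17, with an adjusted p of 0.049. In females the log2 change of Bhmt was -0.15 ± 0.24 (adjusted p = 0.72). The difference between the sexes in this change, -1.40 ± 0.33, had an adjusted p of 0.067 in edgeR and 0.0042 in DESeq2. It was called in edgeR without male high fat replicate 1 or 4 (adjusted p = 0.0094 and 0.042), and without replicates 2 and 3 it was -0.73 ± 0.23 (adjusted p = 0.17). With the normal diet Bhmt was higher in females by 0.77 ± 0.24 (adjusted p = 0.035), a call that was lost when any of 6 of the 8 libraries compared was left out (adjusted p 0.062 to 0.092) or when the filter on low counts was dropped (0.089). On the high fat diet Bhmt was -0.63 ± 0.24 in females relative to males (adjusted p = 0.068), and 0.04 without the male pair.

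Ahcy, which cleaves S-adenosylhomocysteine to homocysteine (ENSMUSG00000027597.16), was measured in females at 2628, 3048, 2147 and 2458 CPM on the normal diet. On the other diet the females had 1479, 1740, 1767 and 1641 CPM. No library of one diet reached the range of the other. The decrease was -0.63 ± 0.16 on the log2 scale, 1.55-fold, with an adjusted p of 0.015. On the TPM scale the change of Ahcy was -0.38 (adjusted p = 0.064 with limma), and without replicate 2 of the females on the normal diet it was -0.53 (adjusted p = 0.064). Males had 2031, 1998, 1831 and 1921 CPM of Ahcy on the normal diet and 1461, 2296, 2313 and 1477 CPM on the high fat diet. Replicates 2 and 3 on the high fat diet lay above all of the normal diet values and replicates 1 and 4 below them. The male log2 change was -0.04 ± 0.16 (adjusted p = 0.89) and, without replicates 2 and 3, -0.41 ± 0.14 (adjusted p = 0.086). The difference of the diet changes, -0.59 ± 0.22, did not pass the test (adjusted p = 0.26), and without male replicates 2 and 3 it was -0.23 ± 0.18 (adjusted p = 0.69). With the normal diet the 4 females lay above the 4 males in Ahcy, by 0.40 ± 0.16 (adjusted p = 0.087 over all groups, 0.028 when only these groups were fitted, and 0.021 without the male pair).

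Gnmt, the enzyme that spends S-adenosylmethionine on methylating glycine (ENSMUSG00000002769.10), ranged from 851 to 1417 CPM in females on the normal diet and from 750 to 896 CPM on the high fat diet. Its log2 change was -0.48 ± 0.22 in females (adjusted p = 0.16). Males had 908, 959, 657 and 670 CPM of Gnmt on the normal diet. With the high fat diet they had 476, 786, 803 and 409 CPM. The high fat values were again split into replicates 2 and 3 within the normal diet range and replicates 1 and 4 below it. The male change of Gnmt was -0.37 ± 0.22 (adjusted p = 0.28) with the pair and -0.85 ± 0.21 (adjusted p = 0.021) without it. In normal diet mice Gnmt in females was 0.54 ± 0.22 above males (adjusted p = 0.097). Without the male pair that value was 0.54 ± 0.17 (adjusted p = 0.036). Among high fat mice Gnmt in females was 0.43 ± 0.22 above males (adjusted p = 0.17), and 0.66 on the TPM scale (adjusted p = 0.031 with limma). Without the male pair this high fat difference in Gnmt was 0.91 (adjusted p = 0.0074). Mat1a, the liver form of the enzyme that makes S-adenosylmethionine (ENSMUSG00000037798.8), passed none of the 5 tests. It ranged from 3657 to 4762 CPM in females and from 2743 to 4427 CPM in males, with log2 diet changes of -0.18 ± 0.15 and 0.24 ± 0.15, the latter 0.08 ± 0.17 without the male pair.

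Of the 2 transsulfuration genes, Cbs rose in females and its diet change differed between the sexes, and Cth passed no test. Cbs joins homocysteine to serine to form cystathionine (ENSMUSG00000024039.16). Females had 164, 170, 150 and 157 CPM of Cbs on the normal diet. The high fat group had 330, 232, 216 and 237 CPM. The female groups did not overlap, and Cbs rose by 0.67 ± 0.18 on the log2 scale, 1.59-fold (adjusted p = 0.026). Males had 171, 325, 195 and 159 CPM of Cbs on the normal diet and 165, 143, 146 and 138 CPM on the high fat diet. Only replicate 1 on the high fat diet reached the normal diet range, and replicate 2 on the normal diet was the highest male library. The male change of Cbs, -0.52 ± 0.18, did not pass the test (adjusted p = 0.073). The difference between the diet changes was 1.19 ± 0.26 with an adjusted p of 0.042, a comparison in which 0.677% of all genes were called. That call was lost in 11 of 16 fits that left out 1 library (adjusted p up to 0.087). It was also lost with male high fat replicates 2 and 3 averaged (0.085) or both left out (0.108). The size of the difference stayed between 0.93 and 1.32 in the 16 fits. The female increase lost its call without replicate 1, 3 or 4 on the normal diet or replicate 1 on the high fat diet (adjusted p 0.053 to 0.080). On the high fat diet Cbs was higher in females than in males by 0.78 ± 0.18 (adjusted p = 0.0069), and every female library lay above every male one. Without male replicates 2 and 3 this difference was 0.75 ± 0.24 (adjusted p = 0.045).

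Cth cleaves cystathionine to cysteine (ENSMUSG00000028179.13). Females had 419, 564, 292 and 286 CPM of Cth on the normal diet and 217, 244, 299 and 302 CPM on the high fat diet. Males had 323, 467, 307 and 296 CPM on the normal diet and 176, 283, 295 and 152 CPM on the high fat diet. The highest library on the normal diet was replicate 2 in both sexes, and the male groups just failed to overlap. The log2 changes of Cth were -0.56 ± 0.24 in females (adjusted p = 0.15) and -0.62 ± 0.24 in males (adjusted p = 0.11). Without male replicates 2 and 3 the male change was -1.09 ± 0.27 (adjusted p = 0.021). The ratio of Cbs to Cth in TPM averaged 0.305 ± 0.079 in females on the normal diet and 0.690 ± 0.253 on the high fat diet. The corresponding male ratios were 0.415 ± 0.055 and 0.489 ± 0.169. On the high fat diet the ratio was 0.64 and 0.63 in male replicates 1 and 4, above the male normal diet range of 0.37 to 0.48. In replicates 2 and 3 it was 0.35 and 0.34, below that range.

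Of the genes that lead to hypotaurine and taurine, Csad varied over a wide range, whereas Cdo1 and Ado passed none of their tests. Cdo1 oxidises cysteine to cysteine sulfinate and Csad removes its carboxyl group to give hypotaurine. Csad (ENSMUSG00000023044.3) was measured at 367, 280.3, 209 and 342 CPM in normal diet males. High fat males had 24.8, 45.9, 46.1 and 28.8 CPM. Females had 64.6, 49.7, 65.3 and 94.7 CPM on the normal diet and 92.2, 54.3, 105 and 26.8 CPM on the high fat diet. Every male library on the normal diet lay above all 12 other libraries, and the female groups overlapped each other. High fat females overlapped high fat males, while normal diet females lay above them. The log2 difference of Csad between diets was -3.04 ± 0.39 in males, 8.23-fold, and 0.02 ± 0.36 in females. The sexes differed by 3.06 ± 0.52 in this change. On the normal diet females were lower than males, at -2.13 ± 0.37, and on the high fat diet the difference was 0.93 ± 0.36 in the other direction. Without male replicates 2 and 3, which were the higher 2 of their group, the male difference was -3.49 ± 0.53. The sex difference on the high fat diet was then 1.38 ± 0.47.

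Cdo1 (ENSMUSG00000033022.9) was measured in females at 1888, 1704, 1286 and 1505 CPM on the normal diet and at 1284, 1488, 1589 and 1395 CPM on the high fat diet. Males had 1426, 1053, 948 and 1005 CPM on the normal diet and 1018, 1541, 1626 and 984 CPM on the high fat diet. All of these groups overlapped within a sex. The log2 changes were -0.15 ± 0.18 in females (adjusted p = 0.63) and 0.22 ± 0.18 in males (adjusted p = 0.45), and -0.15 ± 0.17 in males without replicates 2 and 3. On the normal diet Cdo1 in females was 0.53 ± 0.18 above males (adjusted p = 0.052), which passed the threshold in 14 of 26 alternatives. For mice given high fat food this difference in Cdo1 was 0.16 ± 0.18 (adjusted p = 0.56), and 0.52 ± 0.18 (adjusted p = 0.0495) without the male pair. The ratio of Csad to Cdo1 in TPM averaged 0.177 ± 0.033 in normal diet males and 0.018 ± 0.002 in high fat males. In females it was 0.029 ± 0.010 and 0.032 ± 0.016.

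Ado, which makes hypotaurine from cysteamine by a separate route (ENSMUSG00000057134.8), was measured between 14.2 and 20.3 CPM in all 16 libraries. Its log2 diet changes were 0.06 ± 0.11 in females and 0.20 ± 0.11 in males (adjusted p = 0.77 and 0.27). Slc6a6, the sodium-coupled transporter that brings taurine into cells (ENSMUSG00000030096.9), ranged from 52.8 to 93.5 CPM. Its log2 diet changes were 0.09 ± 0.14 in females and -0.05 ± 0.14 in males (adjusted p = 0.71 and 0.85). Without the male pair the male values were 0.13 ± 0.15 for Ado and -0.24 ± 0.17 for Slc6a6. The groups overlapped in both genes and in both sexes.

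**Figure D3:**
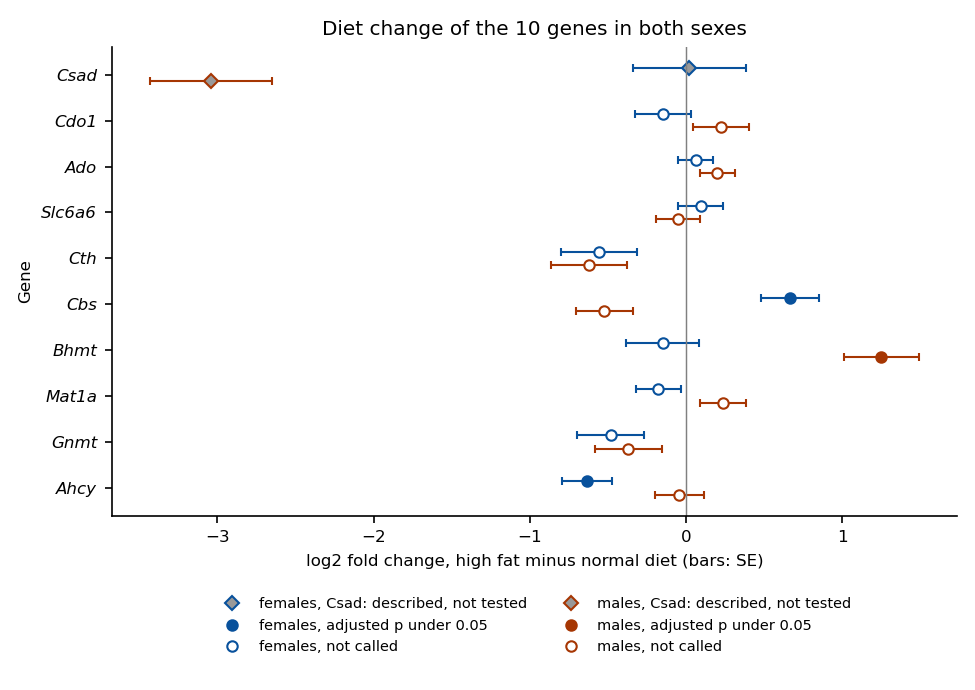
Log2 fold change of the 10 genes on the high fat against the normal diet in females (blue) and males (brown), with SE. Filled circles passed an adjusted p of 0.05 (Cbs and Ahcy in females, Bhmt in males), open circles did not, and Csad is drawn as diamonds because it was not tested.

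Counted over the 9 genes other than Csad, diet changed 2 in females (Cbs up, Ahcy down) and 1 in males (Bhmt up). The shares of all genes called were 11.5% and 11.4%. For the difference between the diet changes 1 of the 9 was called, Cbs, against 0.677% of all genes. Between the sexes 1 of the 9 was called on the normal diet (Bhmt) and 1 on the high fat diet (Cbs), against 15.7% and 20.4% of all genes. With Csad included, the median log2 diet change of the 10 genes was -0.15 in females and -0.05 in males, beside 0.00 and 0.01 over all tested genes. The groups did not overlap for 2 of the 9 genes by diet in females (Cbs and Ahcy) and 2 in males (Bhmt and Cth), against 18.3% and 18.5% of all genes. With so few genes these counts are a description, and no test of the list was made.

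Some deposited values share exons with other genes. In GENCODE M21 the exons of Csad overlap those of Zfp740 on the other strand, and those of Bhmt overlap Gm15622. Whether counting used strand is not given in the sources used here. Zfp740 was at 21.5 to 27.0 CPM as group means, with log2 diet changes of -0.09 ± 0.13 in females and 0.01 ± 0.13 in males. Gm15622 averaged at most 0.619 CPM in any group, against 1754 CPM or more for Bhmt. Slc6a6 overlaps Gm44981, which averaged at most 0.00981 CPM.

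The 42 related genes, taken from 4 lists around the pathway that were drawn up with earlier results known, held few that were called by diet. Of the 41 that were tested (Gadl1 was not), 3 rose and 3 fell in females, and 3 rose and 3 fell in males, 14.6% in each sex beside 11.5% and 11.4% of all genes. The estimates were above 0 for 17 and below 0 for 24 in females, and above 0 for 23 and below 0 for 18 in males. The median log2 change was -0.02 in females and 0.08 in males. For the difference between the diet changes edgeR called 0 of 41, with 7 at an unadjusted p under 0.05, and DESeq2 called 1, Mat2a. Between the sexes 9 were higher in females and 4 in males on the normal diet, and 6 and 4 on the high fat diet. These are 31.7% and 24.4% of the related genes, beside 15.7% and 20.4% of all genes.

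Amd1, whose enzyme diverts S-adenosylmethionine into polyamine synthesis, fell in both sexes. It was at 65.3 to 102 CPM in females on the normal diet and 40.1 to 49.2 CPM on the high fat diet. In males Amd1 was at 99.0 to 141 and 57.9 to 66.7 CPM. The groups did not overlap in either sex, and the log2 changes were -0.70 ± 0.14 (adjusted p = 0.0043) and -1.01 ± 0.14 (adjusted p = 0.00024). It was the only 1 of the 6 methionine salvage genes called in either sex. Among 15 methionine cycle and methyl supply genes, Mat2a fell in females by 0.51 on the log2 scale (SE 0.12, adjusted p = 0.011). Mat2a, the form of the S-adenosylmethionine-making enzyme found outside the liver as well, was not called on the TPM scale (-0.25, adjusted p = 0.18 with limma). Nor was it called in edgeR with library totals without TMM (-0.33, adjusted p = 0.063).

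Of 13 genes for cysteine, glutathione, sulfide and sulfate, Gss was called lower in both sexes and Ethe1 higher in females. Gss, which completes glutathione, was at 65.1 to 75.9 CPM in normal diet males and 40.8 to 48.3 CPM in high fat males, a log2 change of -0.64 ± 0.10 (adjusted p = 0.00082). In females the change of Gss was -0.33 ± 0.10 (adjusted p = 0.045), and 19 of 26 alternatives lost that call. Ethe1, a mitochondrial enzyme of sulfide oxidation, rose in females by 0.59 ± 0.19 (adjusted p = 0.047), and 8 of the fits without 1 library lost the call.

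Of 7 tested genes for taurine transport and use, Slc36a1 rose in both sexes. This proton-coupled carrier of small amino acids was at 10.2 to 13.2 CPM in females on the normal diet and 19.8 to 23.4 CPM on the high fat diet. In males Slc36a1 was at 16.8 to 20.3 and 20.5 to 30.7 CPM. The log2 changes of Slc36a1 were 0.87 ± 0.12 (adjusted p = 0.00027) and 0.48 ± 0.12 (adjusted p = 0.016), the male call being lost without replicate 4 on the high fat diet (0.067). Slc16a6, a member of the monocarboxylate transporter family, was at 2.55 to 5.36 CPM in normal diet males and 5.70 to 16.5 CPM in high fat males, and rose by 1.55 ± 0.30 (adjusted p = 0.0036). Slc6a13, a carrier of taurine in hepatocytes, fell in males by 0.45 on the log2 scale (SE 0.12, adjusted p = 0.024), with the call lost in 7 alternatives. They were both TPM scales (adjusted p = 0.056 and 0.054 with limma), library totals without TMM (0.054), the male groups alone (0.052), and leaving out normal diet replicate 3 (0.082) or high fat replicate 1 (0.053) or 4 (0.078). Pter, which splits N-acetyltaurine, rose in females by 0.40 ± 0.11 (adjusted p = 0.023). That call was lost without replicate 2 or 4 on the normal diet or replicate 1 on the high fat diet (adjusted p 0.057 to 0.062).

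**Figure D4:**
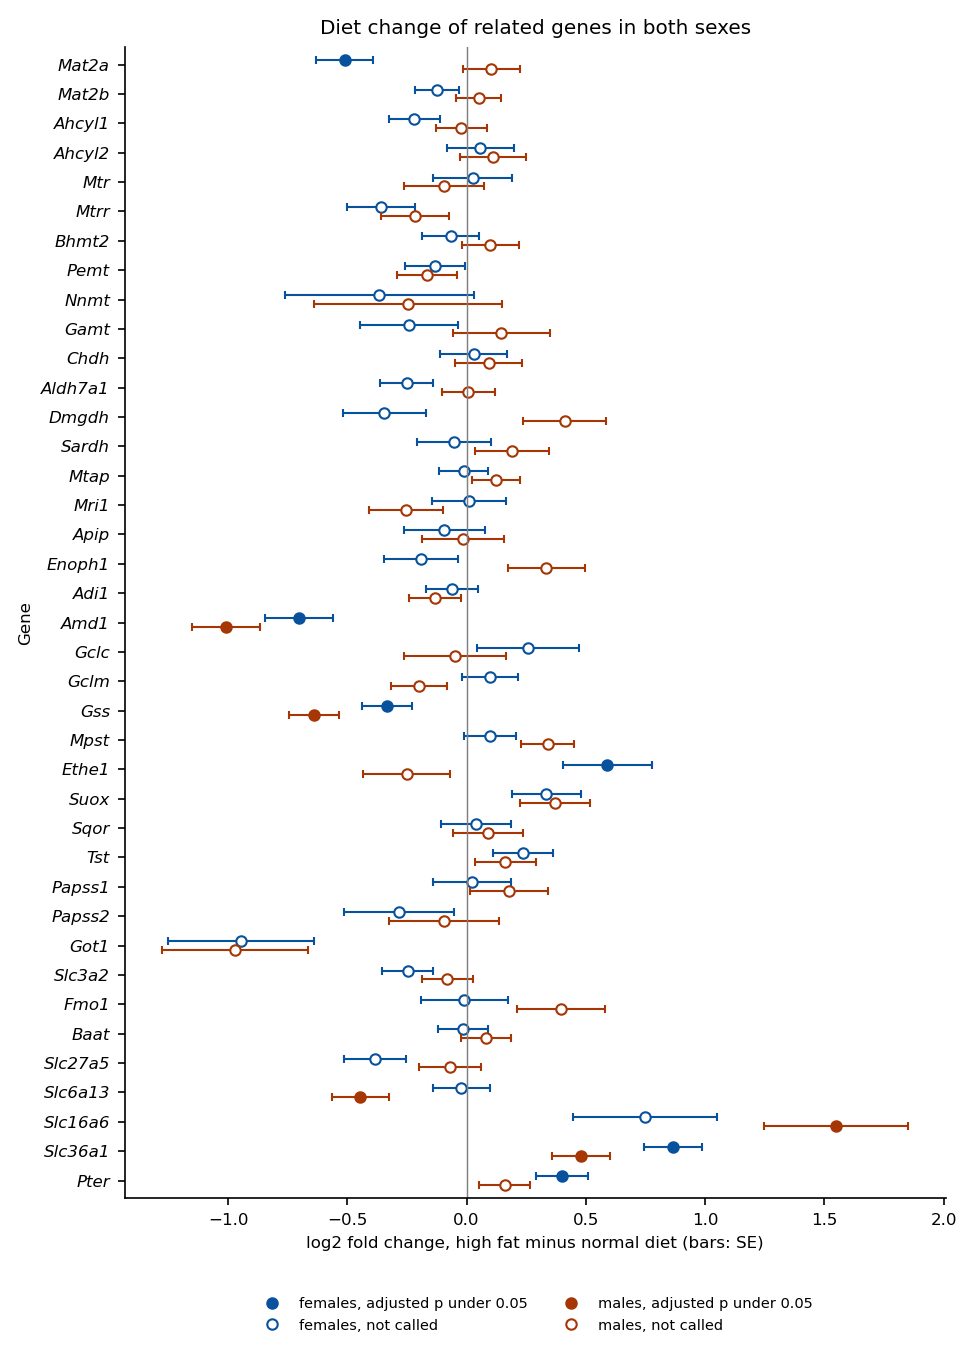
Log2 fold change on the high fat against the normal diet, with SE, of related genes in females (blue) and males (brown), with Slc7a11 left out for its wide SE and 1 other gene not shown. Filled points passed an adjusted p of 0.05. Amd1 and Gss lie below 0 and Slc36a1 above 0 in both sexes, while most genes are open points near 0.

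By sex, the 3 called related genes with the largest difference on the normal diet were higher in females. Gamt, which makes creatine with S-adenosylmethionine, was higher by 0.99 ± 0.21 (adjusted p = 0.0041). Papss2, which activates sulfate, was higher by 0.85 ± 0.23 (adjusted p = 0.020). The call for Papss2 was lost with no filter on low counts (0.057), without female replicate 2 (0.065) and without male replicate 3 (0.056). Fmo1, which can oxidise hypotaurine to taurine, was higher by 0.83 ± 0.18 (adjusted p = 0.0058). Among high fat mice Ahcyl2, a relative of Ahcy, was lower in females, at -0.71 ± 0.14 (adjusted p = 0.0021). Pemt, which makes phosphatidylcholine with S-adenosylmethionine, was higher in females by 0.69 ± 0.13 (adjusted p = 0.0013).

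The genes whose pattern over the 16 libraries lay closest to that of Csad were Hsph1, Dnajb1, P4ha1, Ces2a and Bag3. Likeness was the root mean square difference of centred log2 CPM, which was 0.601 for Hsph1 and 0.750 to 0.804 for the other 4, against a median of 1.25 over 10648 genes. By Pearson correlation in place of that distance, 1 of the 5, Hsph1, stayed among the closest. Hsph1 was at 125 to 277 CPM in normal diet males and 33.5 to 45.2 CPM in high fat males. In females too the mean of each of these 5 genes was lower on the high fat diet, unlike Csad. Female means on the normal and high fat diets were 317.8 and 101.5 CPM for Ces2a and 78.4 and 59.2 CPM for Hsph1. For Csad they were 68.6 and 69.6 CPM. Clock genes also varied with diet and sex. Nr1d1 was at 40.6 to 59.5 CPM in high fat females and 5.75 to 6.99 CPM in high fat males, with log2 diet changes of 1.79 ± 0.21 and -1.91 ± 0.22 (adjusted p = 7.6e-05 and 5.7e-05). Dbp changed by 0.70 ± 0.19 in females and -1.57 ± 0.20 in males (adjusted p = 0.026 and 0.00011). Per2 changed by -0.65 ± 0.13 in females and -0.86 ± 0.13 in males (adjusted p = 0.0035 and 0.00033). Arntl changed by 1.65 ± 0.28 in males (adjusted p = 0.0011), and its female value was 0.85 ± 0.29 (adjusted p = 0.059). Of 13 tested clock genes, 7 were called by diet in females (2 higher, 5 lower) and 10 in males (1 higher, 9 lower). Of all tested genes 11.5% and 11.4% were called. The part of the clock genes in the Csad values was not tested.

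**Figure D5:**
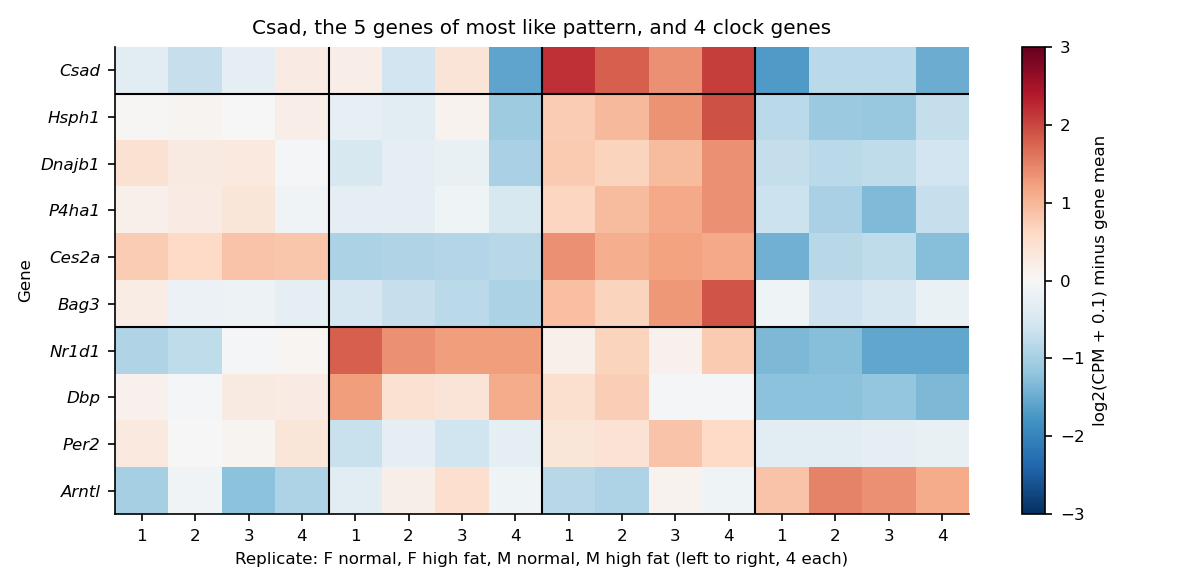
Colour shows log2(CPM + 0.1) minus the mean of the gene over 16 libraries, for Csad, the 5 genes closest to it and 4 clock genes (rows), by replicate within the 4 groups (columns). Csad and the 5 genes are mostly red in normal diet males and blue in high fat males, and Nr1d1 is red in high fat females and blue in high fat males.

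Summed markers of liver cell types were separated by diet in some groups. All 6 hepatocyte markers were detected in every library, and their summed level was lower on the high fat diet. It was 76669 to 93881 against 101125 to 113562 CPM in females and 51082 to 73285 against 80902 to 90798 CPM in males. Most of the sum was Alb, at 86400 to 96200 CPM in normal diet females. Of the 6 markers Tat and Hnf4a fell in both sexes (adjusted p of 0.014 or less) and Alb in males (adjusted p = 0.030). Alb in females, with a log2 change of -0.34, was not called (adjusted p = 0.14). Apoa1, Apob and Ttr were called in neither sex, with changes of 0.06, -0.04 and 0.04 in females and -0.34, -0.12 and -0.16 in males. Macrophage markers summed to 385 to 536 CPM in females on the high fat diet against 230 to 336 CPM, with 2 of 6, Cd5l and Cd68, called. In males the stellate markers summed to 254 to 326 against 208 to 251 CPM, and the adipocyte markers, with Lep at 0 in 10 libraries, to 20.7 to 33.2 against 14.5 to 20.7 CPM. None of the stellate markers was called in males (adjusted p 0.082 to 0.55). Of the adipocyte markers Cfd and Lipe were called in males (adjusted p = 0.024 and 0.048). Adipoq and Fabp4 were not (0.66 and 0.43), and Plin1 and Lep were not tested. Each of these differences in summed markers had an exact permutation p of 0.0286, the smallest that 4 libraries against 4 allow, and an adjusted p of 0.114 over 20 tests. The part of cell composition in the changes of Ahcy, Bhmt, Cbs and Csad was not tested.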

How the data were processed

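Whole-liver polyA RNA libraries, 4 per group, were sequenced on a NovaSeq, per the labels' protocols. STAR, RSEM and GRCm39 are named in the submitters' processing notes without versions. The deposited expected counts are RSEM estimated counts per gene, made by the authors from the aligned reads; 4.89% of entries are not whole. The deposited TPM values were scaled by the authors for gene length and library size. The genes and lists here were chosen with earlier results of these data known.

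Expected counts were rounded and genes filtered with filterByExpr on the 4 groups, leaving 14781 of 78317 genes (99.94% of counts). After TMM scaling, all 16 libraries were fitted with edgeR 4.0.16 (robust quasi-likelihood, R 4.3.3), and p-values were adjusted by Benjamini-Hochberg over all tested genes, with a threshold of 0.05 (called). CPM is relative to the TMM-scaled library size. The fit was tested on simulated data. Symbols were matched by gene ID (51487 genes), with Bmal1 listed as Arntl.

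Genes named in the text are the 10 genes, related genes called by diet in either sex, the 3 largest called related genes in each sex comparison, the 5 genes closest to Csad (of those whose log2 CPM averaged 1 or more), overlapping genes, and 4 clock genes; 1 related gene that this rule names is counted but not reported here. Marker sums were compared by a two-sided exact permutation test. Alternatives were DESeq2 1.42.0 (size factors, Wald test), no TMM, no filter, limma 3.58.1 on log2(TPM + 1) and log2(TPM + 0.1), only the groups compared, a replicate block, each library left out, and the close male pair averaged or, chosen after seeing the data, left out. Totals of 22228115 to 41420589 counts gave Ado, the gene with the fewest, 348 to 698 counts per library.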

Additional observations from a re-analysis of the deposited data

Results flagged for a closer look

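In groups of 4, a library is set apart here when its gap to the nearest other takes up nearly all of the group's range (Dixon's test at the 95% level). Of 76 groups checked over the genes named, 6 had such a library, where chance gives about 1 in 20, or 3.8. Female replicate 1 on the high fat diet accounts for 3 of them: it was the lowest for Slc6a6 (52.8 CPM) and Mat1a (3657 CPM) and the highest for Gss (66.2 CPM). Ado was lowest in replicate 2 of the females on the normal diet (14.99 CPM). Cth was highest in replicate 2 of the males on the normal diet (466.9 CPM). Amd1 was highest in replicate 1 of the females on the normal diet (102.2 CPM).

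The diet change differed between females and males for Cbs, by 1.19 ± 0.26 on the log2 scale (adjusted p = 0.042). Only 5 of the 16 fits that left out 1 library kept this call. It was lost with the close male pair averaged (adjusted p = 0.085) or left out (0.108).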

How the results depend on the processing

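Counts of genes called, over the 9 genes other than Csad, were 2 by diet in females, 1 in males, 1 for the difference of the diet changes, and 1 by sex on each diet. With limma on log2(TPM + 1) or log2(TPM + 0.1) the female count was 1 and the counts by sex 2 and 2. DESeq2 gave 2 in males, for the difference and by sex on each diet. By sex on the normal diet, library totals without TMM gave 2 and fitting only the groups compared 3. Leaving out male high fat replicates 2 and 3 gave 3 in males, 0 for the difference, and 4 and 3 by sex, and averaging them gave 0 for the difference and 2 by sex on the normal diet. Labelled replicate numbers did not pair the libraries (4 of 24 same-numbered correlations of deviations exceeded 0.1), and with a replicate block the counts were 2 in females and 1 in each other comparison. With each library left out, the counts ranged from 1 to 2 by diet in either sex, 0 to 2 for the difference, 0 to 2 by sex on the normal diet and 1 to 2 on the high fat diet. The female count was 1 without any of the 4 normal diet females or high fat replicate 1; the male count was 2 without female high fat replicate 1 or male normal diet replicate 4. The difference count was 0 without any normal diet female, female high fat replicate 1, 2 or 4, male normal diet replicate 3 or male high fat replicate 2 or 3, and 2 without male high fat replicate 1. By sex on the normal diet the count was 0 without female replicate 1 or 2 or male replicate 3 or 4, and 2 without male normal diet replicate 1, female high fat replicate 1 or male high fat replicate 1, 3 or 4. By sex on the high fat diet it was 2 without male replicate 1 or 4. Related genes called ranged from 3 to 6 in females (3 without normal diet replicate 2 or 4) and 4 to 10 in males (10 without high fat replicate 1). For their difference DESeq2, and the fit without the male pair, called 1 in place of 0. No called value changed sign, and of single-gene values other than those of Csad 71 lost and 33 gained a call against 1525 on the same side. Values that were not called changed sign in 55 of 1006 cases, and no direction is claimed for them. The median of all genes moved by 0.15, 0.22 and 0.19 in females, and by 0.04, 0.07 and 0.09 in males, on log2(TPM + 1), on log2(TPM + 0.1) and with library totals. Female calls over all genes went from 848 up and 852 down to 2644 and 282 on log2(TPM + 1) and 2318 and 372 with library totals; the cause was not tested. The effect of depth was not tested.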
